A study of Mus musculus with 20 samples.

Results

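The Hox genes encode homeodomain transcription factors that give cells along the body axis their regional identity, and in mouse they lie in 4 clusters, Hoxa, Hoxb, Hoxc and Hoxd. The members described here were 38 Hox genes, named by symbol and placed by their mm10 position: 10 in Hoxa, 10 in Hoxb, 9 in Hoxc and 9 in Hoxd. They were set beside all 21887 protein-coding genes of the numbered chromosomes, X and Y. Membership was set by gene name and position and not by a measured value, but earlier results of these data were known at the choice. Each gene was read over a window from 1 kb before its start to 1 kb after its end, and a mark was counted as present where 1 bp or more of a deposited peak lay in that window.

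The peaks came from chromatin immunoprecipitation with sequencing (ChIP-seq) of Comma-Dβ cells, a mouse mammary epithelial line, at passage 28. The study's 20 samples formed 5 groups of 4: antibodies to H3K27ac, H3K4me3, H3K27me3 and the E protein HEB, and input chromatin. All groups were the same untreated line, grown in DMEM/F12 with mEGF (5 ng/mL), insulin (0.125 IU/mL), HEPES (10 mM) and FBS (2%), so the values describe 1 cell line in culture and no other tissue. The files hold 1 peak list per antibody and no column per replicate. There was therefore no replicate error and no test, the read depth behind each peak is unknown, and every comparison below is a description of these lists.

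Genes of a Hox cluster are transcribed in the same direction. The paralogue group number in a gene's name gives its place in the cluster, with low numbers at the 3′ side (anterior genes, groups 1 to 3), middle numbers in the centre (groups 4 to 8) and high numbers at the 5′ side (posterior genes, groups 9 to 13). In development, Hox genes are switched on in this order, and cells of each body level keep some of them open and the others closed. H3K27me3 is laid down by Polycomb repressive complex 2 and marks genes held silent. H3K4me3 marks the starts of active or poised genes, and H3K27ac marks active promoters and enhancers. H3K27ac and H3K4me3 are called the active marks below. A population of cells was measured, so marks found at the same place on the same chromatin and marks carried by different cells or alleles cannot be told apart.

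The starts of 6 members carry the contrasts described below, and their sequences are shown with CG dinucleotides in capitals, since CpG-rich starts are where both H3K4me3 and Polycomb marks are usually found. Each runs 5′ to 3′ on the gene's own strand, from 250 bases before the start to 50 after it, in RefSeq GRCm38.p6, the assembly on which mm10 is based. Hoxa5 (chr6:52204538-52204837, minus strand) lay under H3K4me3 and outside H3K27me3. Hoxa6 (chr6:52208623-52208922, minus) and Hoxa7 (chr6:52218524-52218823, minus) stand on the other side of it, both under H3K27me3. Hoxb4 (chr11:96318017-96318316, plus) lay under H3K27ac and H3K4me3. Hoxc4 (chr15:103034145-103034444, plus) lay under H3K27me3, and H3K4me3 covered 173 of its 300 bases. Hoxd9 (chr2:74697513-74697812, plus) lay under H3K27me3 alone.
Hoxa5: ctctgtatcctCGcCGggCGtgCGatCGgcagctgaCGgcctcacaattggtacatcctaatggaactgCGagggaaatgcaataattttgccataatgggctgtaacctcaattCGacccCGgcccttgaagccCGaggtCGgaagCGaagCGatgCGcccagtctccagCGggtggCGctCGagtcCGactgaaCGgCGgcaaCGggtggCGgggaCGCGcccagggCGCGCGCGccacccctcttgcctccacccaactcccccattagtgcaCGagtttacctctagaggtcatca
Hoxa6: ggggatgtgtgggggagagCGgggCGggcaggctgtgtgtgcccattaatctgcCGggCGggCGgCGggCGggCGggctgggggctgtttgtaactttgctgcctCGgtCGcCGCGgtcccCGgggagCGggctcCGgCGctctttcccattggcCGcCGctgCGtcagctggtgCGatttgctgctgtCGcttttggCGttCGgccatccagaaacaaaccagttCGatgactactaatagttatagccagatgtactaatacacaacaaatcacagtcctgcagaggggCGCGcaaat
Hoxa7: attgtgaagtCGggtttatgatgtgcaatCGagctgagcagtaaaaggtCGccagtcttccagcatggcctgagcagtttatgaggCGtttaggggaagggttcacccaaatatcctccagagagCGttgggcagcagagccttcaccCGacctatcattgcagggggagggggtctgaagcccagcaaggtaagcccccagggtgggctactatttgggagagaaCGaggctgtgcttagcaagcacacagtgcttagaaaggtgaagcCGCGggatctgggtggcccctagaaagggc
Hoxb4: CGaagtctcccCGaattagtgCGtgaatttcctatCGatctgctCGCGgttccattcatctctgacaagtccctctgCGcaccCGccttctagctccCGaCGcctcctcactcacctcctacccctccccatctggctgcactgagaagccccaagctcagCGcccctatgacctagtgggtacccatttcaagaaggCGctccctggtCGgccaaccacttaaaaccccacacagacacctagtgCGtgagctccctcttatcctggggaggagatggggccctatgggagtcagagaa
Hoxc4: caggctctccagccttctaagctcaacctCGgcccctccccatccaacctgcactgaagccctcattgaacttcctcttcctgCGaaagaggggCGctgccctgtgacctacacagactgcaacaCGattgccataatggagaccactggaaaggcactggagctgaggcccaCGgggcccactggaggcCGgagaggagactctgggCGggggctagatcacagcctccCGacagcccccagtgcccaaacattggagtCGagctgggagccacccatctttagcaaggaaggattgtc
Hoxd9: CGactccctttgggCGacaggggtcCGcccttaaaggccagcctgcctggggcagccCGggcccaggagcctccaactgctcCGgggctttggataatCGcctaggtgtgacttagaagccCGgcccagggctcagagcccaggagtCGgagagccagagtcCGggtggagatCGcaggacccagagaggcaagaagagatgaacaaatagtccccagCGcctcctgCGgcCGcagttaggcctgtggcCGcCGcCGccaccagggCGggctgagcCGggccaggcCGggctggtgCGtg

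These windows held 29 CG dinucleotides at Hoxa5, 26 at Hoxa6, 9 at Hoxa7, 14 at Hoxb4, 9 at Hoxc4 and 20 at Hoxd9. The promoter table used here had 24 windows for 22 of the 38 members. They held a median of 14.5 CG (range 4 to 45, the highest at Hoxa13), against 7.0 in the 32851 windows of all genes, and the median G plus C share was 57.7%, against 52.7%. The 4 windows touched by H3K4me3 had a median of 17.0 CG, and the 18 windows under H3K27me3 without H3K4me3 had a median of 17.5. The medians of these sets were close.

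H3K27me3 was the mark most Hox genes shared. It lay at 34 of 38 members (89.5%), against 37.5% of all protein-coding genes. H3K4me3 lay at 19 members (50.0%), against 61.2% of all genes. H3K27ac was found at 16 members (42.1%), against 63.2% of all genes. H3K27me3 also covered far more of the genes: it filled 90% or more of the window at 27 of 38 members (71.1%), against 5.56% of all genes. Where a mark had to cover at least 20% of the window, the order turned for the active marks. H3K27ac passed at 10 members (26.3%), against 21% of all genes, and H3K4me3 at 12 members (31.6%), against 13.1%. A peak of a given width fills more of a short window than of a long one. Hox genes are short, so these comparisons by coverage are not matched for length.

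Sorting each gene by its combination of marks, 18 members (47.4%) had H3K27me3 and neither active mark, against 17.9% of all genes. Another 16 members (42.1%) had H3K27me3 together with an active mark, against 19.6%. An active mark without H3K27me3, which was the state of 48.6% of all genes, was found at 4 members (10.5%), namely Hoxa2, Hoxb2, Hoxb3 and Hoxb4. No member lacked all 3 marks, against 13.9% of all genes. Of the 16 mixed members, 12 had all 3 marks (11.5% of all genes did) and 4 had H3K4me3 and H3K27me3 without H3K27ac (4.06% of all genes did): Hoxa7, Hoxa9, Hoxa10 and Hoxc9.

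Hox genes are short, with a median length of 3722 bp against 17169 bp for all genes. A short window has fewer places for a peak, but a peak that lies there fills more of it. Only the presence of a mark, and not its coverage, was compared among genes of like length. Among genes of at most 15 kb, H3K27me3 lay at 31 of 34 members (91.2%), against 34.2% of all such genes. In that class H3K27ac lay at 38.2% of members and 46.4% of all genes, and H3K4me3 lay at 47.1% of members and 46.2% of all genes. The lower share of H3K4me3 at Hox genes was thus not seen among genes of like length. The mixed state was still more frequent at short Hox genes, with 14 of 34 (41.2%) against 10.5%. H3K27me3 without an active mark lay at 17 of 34 (50.0%) against 23.7%, and an active mark without H3K27me3 at 3 of 34 (8.82%) against 40.9%. The 4 longer members were Hoxa3 (44.0 kb), Hoxb3 (40.8 kb), Hoxd3 (36.3 kb) and Hoxc4 (18.8 kb).

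**Figure D1:**
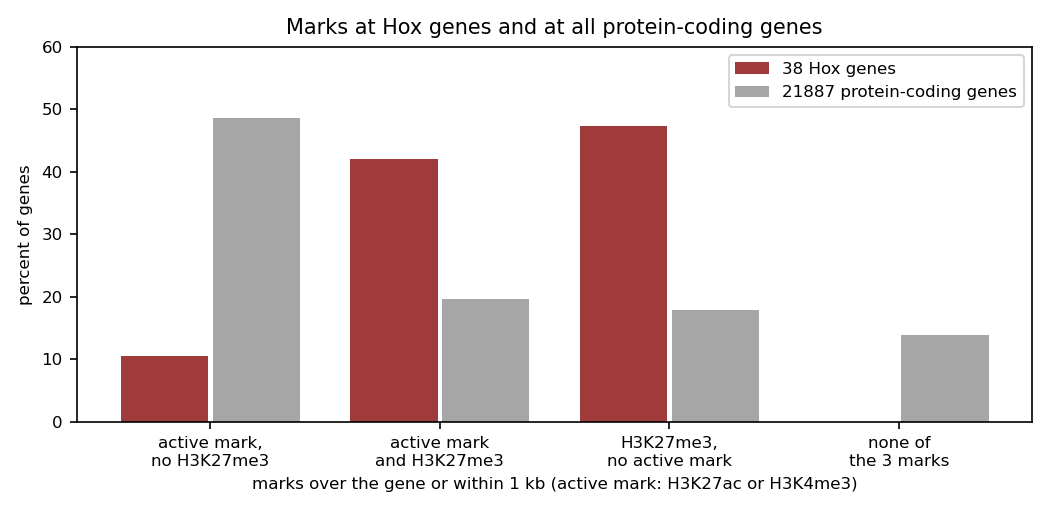
Percent of genes in each combination of marks (vertical axis), for the 38 Hox genes (red bars, left of each pair) and the 21887 protein-coding genes (grey bars). The red bar is the taller for H3K27me3 without an active mark (47.4% against 17.9%) and for the mixed state (42.1% against 19.6%).

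Many members share peaks, so the counts of genes are not counts of separate events. The 34 members with H3K27me3 rested on 14 distinct peaks, all 9 of Hoxc on a single peak. The 16 members with H3K27ac rested on 25 peaks and the 19 with H3K4me3 on 29. Several gene spans also overlap in the annotation. The span of Hoxa3 contains those of Hoxa4, Hoxa5 and Hoxa6, that of Hoxb3 contains Hoxb4, that of Hoxd3 contains Hoxd4, and Hoxd11 and Hoxd10 share 2744 bp. Hoxa3 and Hoxb3 therefore also carry the peaks of the genes inside them.

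The 4 clusters differed. Over the span from the first to the last member, H3K27me3 covered 61.5% of Hoxa, 62.1% of Hoxb, 100% of Hoxc and 97.9% of Hoxd. H3K27ac covered 11.9% of Hoxa, 33.6% of Hoxb, 3.74% of Hoxc and none of Hoxd. H3K4me3 covered 17.0% of Hoxa, 22.9% of Hoxb, 6.44% of Hoxc and none of Hoxd. Hoxb thus had the most of both active marks and Hoxd had neither.

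**Figure D2:**
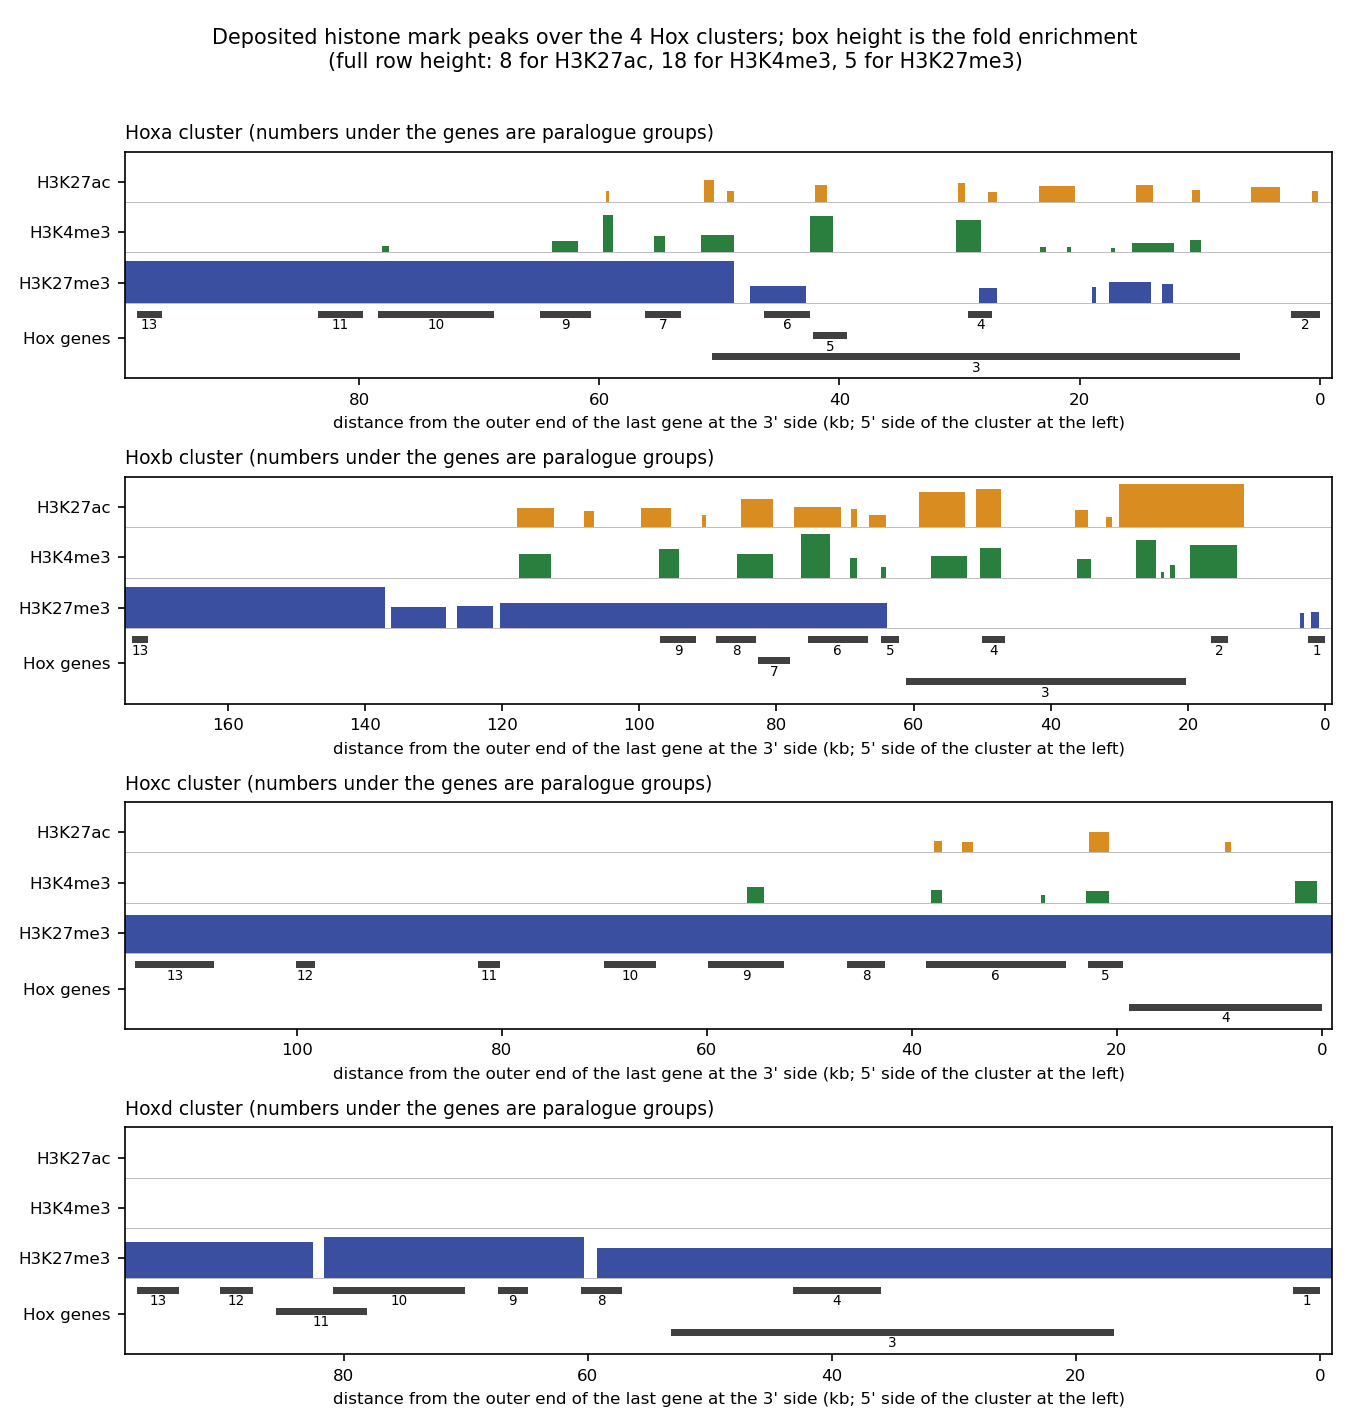
Deposited peaks over the 4 clusters, with distance in kb from the outer end of the 3′ gene along the horizontal axis and the 5′ side at the left. The height of a box is the peak's fold enrichment on a scale that differs by mark, grey bars are the member genes, and numbers are their paralogue groups. H3K27me3 fills Hoxc and nearly all of Hoxd and the 5′ side of Hoxa, whereas Hoxb has a wide stretch of H3K27ac and H3K4me3 without H3K27me3.

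Hoxd carried H3K27me3 alone. All 9 members had H3K27me3 and none had an active mark, and H3K27me3 covered between 79.7% (Hoxd8) and 100% of each gene window. The mark came in 3 adjoining peaks across the genes, of 26.4 kb over Hoxd13 and Hoxd12 and into Hoxd11 (fold enrichment 4.00), 21.3 kb from Hoxd11 to Hoxd8 (fold 4.55) and 84.7 kb from Hoxd8 to Hoxd1 (fold 3.32). Fold enrichment here and below is the authors' ratio of ChIP over control for a peak, and the median over the whole H3K27me3 list of 114660 peaks was 1.74. Hoxd13, Hoxd12 and Hoxd11 pattern digits and distal limb, Hoxd10 and Hoxd9 act in the limb and the lumbar spinal cord, and Hoxd1, at the other end, acts in sensory neurons. The nearest H3K27ac peak on the 3′ side lay 34.9 kb beyond the end of the 84.7 kb peak.

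Hoxc lay whole under a single H3K27me3 peak of 181.6 kb, chr15:102891508-103073067, with fold 4.26. It ranked 7 by width and 52 by fold among the peaks of its list. At the 5′ side, Hoxc13, a regulator of hair keratins, and Hoxc12, Hoxc11 and Hoxc10 had no active mark, and neither did Hoxc8, which acts in early mammary placode and thoracic patterning in mouse. Hoxc9, a regulator of motor neuron identity, had an H3K4me3 peak of 1.63 kb (fold 6.27) and no H3K27ac. Hoxc6, Hoxc5 and Hoxc4 had both active marks inside the H3K27me3 peak.

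In Hoxc5 an H3K27ac peak of 1.93 kb (fold 3.52) lay together with an H3K4me3 peak of 2.22 kb (fold 4.88). At Hoxc6 the H3K27ac folds were 2.06 and 1.80, below the list median of 2.39, and its H3K4me3 folds were 4.95 and 3.07. Hoxc4 had a weak H3K27ac peak (fold 1.92, −log10 q 1.54) and, at the start given in the promoter table, an H3K4me3 peak of 2.12 kb (fold 8.77). The median over the H3K4me3 list was 12.9, so each H3K4me3 peak of Hoxc stood below it.

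Hoxa had H3K27me3 over its whole 5′ side, with H3K4me3 inside it at 3 of 5 genes, and patches of all 3 marks toward the 3′ side. A single H3K27me3 peak of 137.6 kb, chr6:52211166-52348751 (fold 4.63, rank 17 by width and 25 by fold in its list), covered 100% of the windows of Hoxa13, Hoxa11, Hoxa10, Hoxa9 and Hoxa7. Hoxa13, which acts in digits and the urogenital tract, and Hoxa11, which acts in limb and uterus, had no active mark. Hoxa10, also a regulator of uterine development, had an H3K4me3 peak of 599 bp and fold 2.42 over 5.14% of its window. Hoxa9, a regulator of blood progenitors, had an H3K4me3 peak of fold 4.71 in the gene and another of fold 14.7 in the flank at its 3′ side, and Hoxa7 had an H3K4me3 peak of fold 6.55.

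Toward the 3′ side of that edge, Hoxa6 was covered by H3K27me3 over 76.8% of its window and Hoxa5 over 7.88%, by a separate peak of 4.70 kb and fold 1.90. Hoxa5, which acts in lung and mammary gland development, had an H3K4me3 peak of 1.92 kb and fold 14.4 across its start and an H3K27ac peak of 965 bp and fold 2.95. Those same H3K4me3 and H3K27ac peaks reached the window of Hoxa6 and gave it its active marks. Hoxa4 had H3K4me3 over 51.7% of its window (fold 12.8), H3K27ac over 30.7% (fold 3.30) and an H3K27me3 peak of fold 1.59, the lowest among the members. Hoxa3 had 9 H3K27ac peaks, 8 H3K4me3 peaks and 6 H3K27me3 peaks along its long span.

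Hoxa2, a hindbrain and branchial arch gene at the 3′ side, had H3K27ac over 12.3% of its window, in peaks of fold 1.95 and 2.58, and no H3K27me3. No H3K4me3 peak reached its window, the nearest being 1033 bp from the gene. A stronger H3K27ac peak, of 3.28 kb and fold 9.14, lay 1016 bp from the gene on the same side and also missed the window. The H3K27ac that did reach the window of Hoxa2 was weak.

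Hoxb held the strongest active signal of the 4 clusters. Hoxb2, which patterns the hindbrain, was covered over 100% of its window by both H3K27ac and H3K4me3 and had no H3K27me3. Its H3K27ac peak was 18.3 kb wide, ran into Hoxb3 and had a fold of 7.62, the highest at any member, ranking 125 by width and 1544 by fold among the list's 61496 peaks. Hoxb3 had H3K27ac over 56.2% and H3K4me3 over 33.6% of its long window. Hoxb4, known for its role in blood stem cells, had H3K27ac over 69.4% (fold 6.76) and H3K4me3 over 56.5% (fold 11.9). These genes lay in a stretch of 60.2 kb without H3K27me3, chr11:96304325-96364550, of which H3K27ac covered 52.5% and H3K4me3 34.7%.

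From Hoxb5 to Hoxb9 all 3 marks lay together. An H3K27me3 peak of 56.3 kb, chr11:96247999-96304324 (fold 2.73), covered 100% of the windows of Hoxb9, Hoxb8, Hoxb7 and Hoxb6 and 39.3% of that of Hoxb5. Within it, H3K27ac covered 37.2% of the window of Hoxb9, 41.6% at Hoxb8, 54.1% at Hoxb7, 70.0% at Hoxb6 and 36.8% at Hoxb5. H3K4me3 covered 41.0% at Hoxb9, 48.0% at Hoxb8, 48.1% at Hoxb7, 49.6% at Hoxb6 and 16.9% at Hoxb5. Hoxb6 had the highest H3K4me3 fold of any member, 17.4, in a peak of 4.24 kb. By the highest peak at each gene, Hoxb5, a gene of the enteric nervous system and lung, was the weakest of these genes. Its folds were 2.17 for H3K27ac and 4.28 for H3K4me3.

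The outermost Hoxb genes carried H3K27me3 alone. Hoxb13, a prostate and tail gene that lies 74.7 kb from Hoxb9, was covered whole by an H3K27me3 peak of 71.2 kb and fold 4.48. Hoxb1, a hindbrain gene and the last member at the 3′ side, had H3K27me3 over 33.4% of its window, in small peaks of at most 1.14 kb and fold 1.80, close to the list median of 1.74. Hoxb13 and Hoxb1 thus fall in the same class through peaks of very different width and fold.

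**Figure D3:**
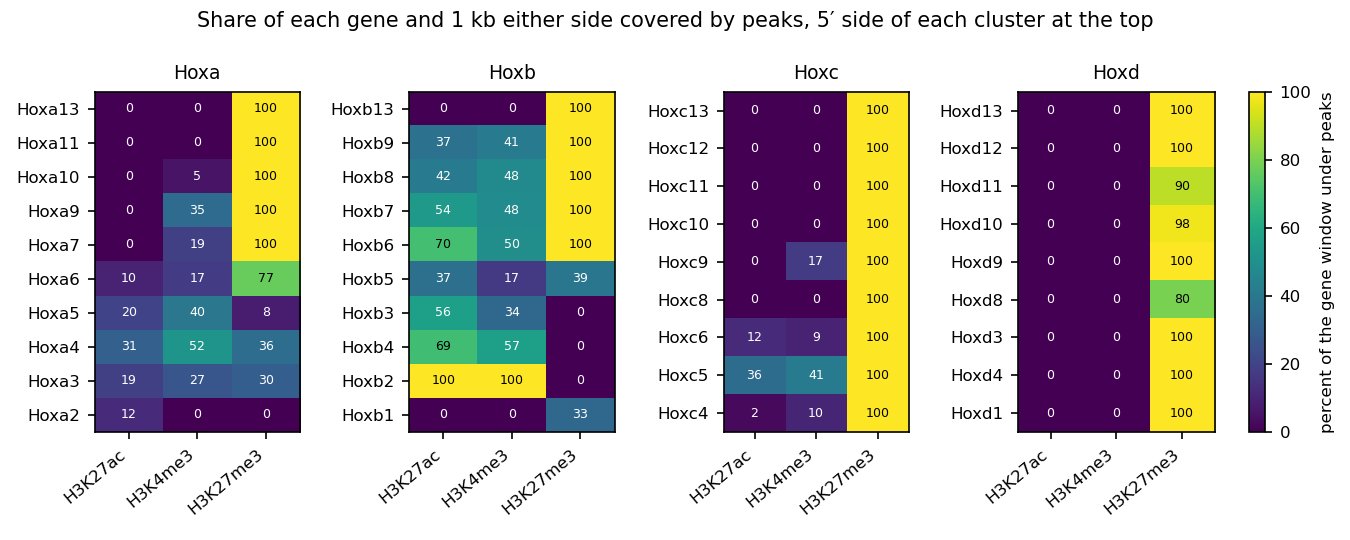
Percent of each gene's window (the gene and 1 kb either side) covered by peaks of each mark, from dark (0) to yellow (100), with the genes of each cluster running from the 5′ side at the top to the 3′ side at the bottom. The H3K27me3 column is at 100 throughout Hoxc and falls to 0 at Hoxb3, Hoxb4, Hoxb2 and Hoxa2, and the active marks are at 0 throughout Hoxd.

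Read across the clusters by position, all 16 posterior genes (groups 9 to 13) had H3K27me3, each over 90% or more of its window. H3K4me3 lay at 4 of those 16 and H3K27ac at 1, Hoxb9. Of the 15 central genes (groups 4 to 8), 14 had H3K27me3, 12 had H3K4me3 and 11 had H3K27ac, and 11 were mixed. Of the 7 anterior genes (groups 1 to 3), 4 had H3K27me3, 3 had H3K4me3 and 4 had H3K27ac. Most of the mixed members were thus central genes, 11 of 16.

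By paralogue group, all 9 genes of groups 11, 12 and 13 had H3K27me3 without an active mark, whatever their cluster. All 8 genes of groups 5, 6 and 7 were mixed in the main count. Only Hoxb6, Hoxb7 and Hoxc5 kept that state under every alternative window and peak threshold in which they were scored. Both genes of group 2, Hoxa2 and Hoxb2, had an active mark without H3K27me3, and both of group 1, Hoxb1 and Hoxd1, had H3K27me3 alone. Groups 3, 4, 8, 9 and 10 were split between clusters. In groups 3 and 4, for example, Hoxb3 and Hoxb4 had active marks only, Hoxa3, Hoxa4 and Hoxc4 were mixed, and Hoxd3 and Hoxd4 had H3K27me3 only. In group 9, which in mouse acts in the mammary gland during pregnancy through Hoxa9, Hoxb9 and Hoxd9, Hoxa9, Hoxb9 and Hoxc9 were mixed and Hoxd9 had H3K27me3 alone.

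Over the 38 members, Spearman's rho between paralogue group and the covered percent of the window was 0.55 for H3K27me3, −0.52 for H3K27ac and −0.41 for H3K4me3. The members share peaks, so these are descriptions. Within clusters, the H3K27me3 value was 0.90 in Hoxa and 0.85 in Hoxb (n = 10 genes each) and −0.14 in Hoxd (n = 9 genes), where 6 of the 9 values lay at 100%. In Hoxc the H3K27me3 coverage did not vary, and in Hoxd the active marks were absent. For H3K27ac the value was −0.82 in Hoxa, −0.32 in Hoxb and −0.78 in Hoxc. For H3K4me3 it was −0.41 in Hoxa, −0.16 in Hoxb and −0.73 in Hoxc.

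**Figure D4:**
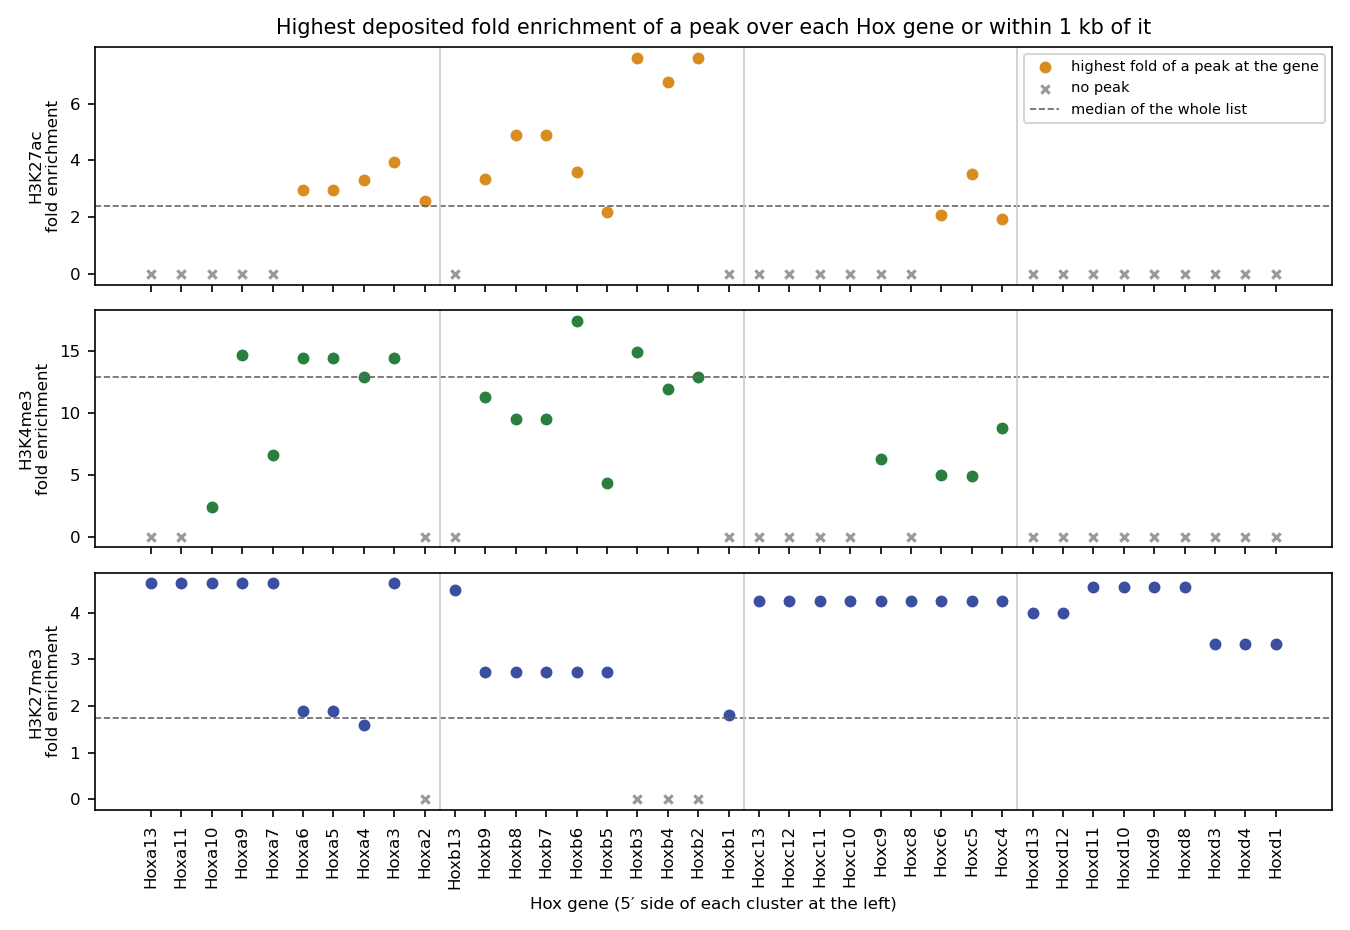
Highest fold enrichment (the authors' ratio of ChIP over control, vertical axis) of a peak at each Hox gene or within 1 kb, for H3K27ac, H3K4me3 and H3K27me3 from top to bottom; crosses at 0 mark genes with no peak, the dashed line is the list median, and genes run from the 5′ to the 3′ side of each cluster. H3K27me3 points lie above their median at 33 of 34 genes, H3K4me3 points at 6 of 19. Over all protein-coding genes with a peak of the mark, 7047 of 8216 and 9590 of 13398 did so.

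In fold enrichment, the Hox peaks ranked high for H3K27me3 and not for H3K4me3. The highest H3K27me3 fold at a member ran from 1.59 to 4.63 with a median of 4.26, and 33 of 34 members stood above the list median of 1.74. For H3K27ac the folds ran from 1.92 to 7.62 with a median of 3.44, and 13 of 16 members stood above the list median of 2.39. For H3K4me3 they ran from 2.42 to 17.4 with a median of 11.3, and 6 of 19 members stood above the list median of 12.9. Hoxa9 was among those 6 only through the peak in its flank. A gene with several peaks or a wide peak gives its highest value here, so these medians are not like for like with the median over single peaks. Over all protein-coding genes with a peak, those above the list median were 7047 of 8216 for H3K27me3 and 12411 of 13837 for H3K27ac. For H3K4me3 they were 9590 of 13398. Against these shares, the members stood higher for H3K27me3 and lower for H3K27ac and H3K4me3.

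The places where active and repressive stretches meet were counted after joining peaks of a mark at most 1 kb apart, over each cluster with 20 kb either side. An H3K27ac stretch overlapped an H3K27me3 stretch, or lay at most 2 kb from it, at 22 places. There were 9 such places in Hoxa, 8 in Hoxb, 5 in Hoxc and 0 in Hoxd. Many rested on weak peaks: once those under a −log10 q of 5 were dropped there were 2 in Hoxa, 6 in Hoxb, 1 in Hoxc and 0 in Hoxd, and with peaks above the list median of fold 3, 6, 1 and 0 in the same order of clusters. In 18 of the 22 the H3K27ac stretch lay wholly inside the H3K27me3 stretch, including all 5 in Hoxc, where H3K27me3 covered the whole span. In the other 4, all in Hoxa, the stretches stood apart, by 770 bp at Hoxa5, 1232 bp at Hoxa4, and 1438 and 1567 bp in the span of Hoxa3. No H3K27ac stretch ran across an H3K27me3 edge.

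More of the active marks lay under H3K27me3 in these clusters than in the lists as a whole, but H3K27me3 also covered much of the clusters. It covered 61.5% of the span of Hoxa, 62.1% of Hoxb and 100% of Hoxc. The shares of 100% in Hoxc were therefore fixed by that cover. In Hoxa and Hoxb the shares of both active marks under H3K27me3 were no higher than that cover. Of the base pairs under H3K27ac, 31.1% lay under H3K27me3 in Hoxa, 45.9% in Hoxb (26.8 of 58.4 kb) and 100% in Hoxc (4.33 kb), against 1.81% in the whole list (2.18 of 120.1 Mb). For H3K4me3, 61.2% lay under H3K27me3 in Hoxa, 47.7% in Hoxb and 100% in Hoxc, against 7.92% in the whole list. The share of H3K4me3 that also lay under H3K27ac was 93.1% in Hoxb, 35.6% in Hoxa and 36.8% in Hoxc, against 72.6% in the whole list. In Hoxa and Hoxc, then, more H3K4me3 lacked H3K27ac than in the list as a whole, and in Hoxb less.

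Long H3K27me3 stretches had edges inside Hoxa, Hoxb and Hoxd. In Hoxa the 137.6 kb stretch ended at chr6 position 52211166, 2.49 kb from Hoxa6 and 4.46 kb from Hoxa7. That place is also inside the long annotated span of Hoxa3. A separate H3K27me3 stretch of 4.70 kb, chr6:52205207-52209901, followed over Hoxa6, so this edge depends on the 1 kb joining. Small H3K27ac peaks (601 and 780 bp, folds 1.85 and 3.93) lay just inside that edge, and beyond it the next H3K4me3 peak stood 6.30 kb away, at Hoxa5. In Hoxb the 56.3 kb stretch ended at chr11 position 96304324, inside Hoxb5. An H3K27ac peak of 2.45 kb and fold 2.17 ended just inside that edge as well, and the next H3K27ac peak beyond it, 4.69 kb away, was 6.72 kb wide with a fold of 6.21. By the nearest genes, the Hoxa edge thus fell between groups 6 and 7 and the Hoxb edge within group 5. Both had the long H3K27me3 stretch toward the 5′ genes, and Hoxb kept active marks within H3K27me3 as far as Hoxb9. Another break in Hoxb lay between Hoxb13 and Hoxb9, where a stretch of 80.1 kb ended at chr11 position 96240040 and a separate one of 5.21 kb preceded the 56.3 kb stretch. In Hoxd, the edges of stretches of 48.6 and 84.7 kb faced each other inside Hoxd8, at chr2 positions 74704809 and 74705890, with no active mark between them. These breaks in Hoxb and Hoxd depend on the 1 kb joining as well.

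**Figure D5:**
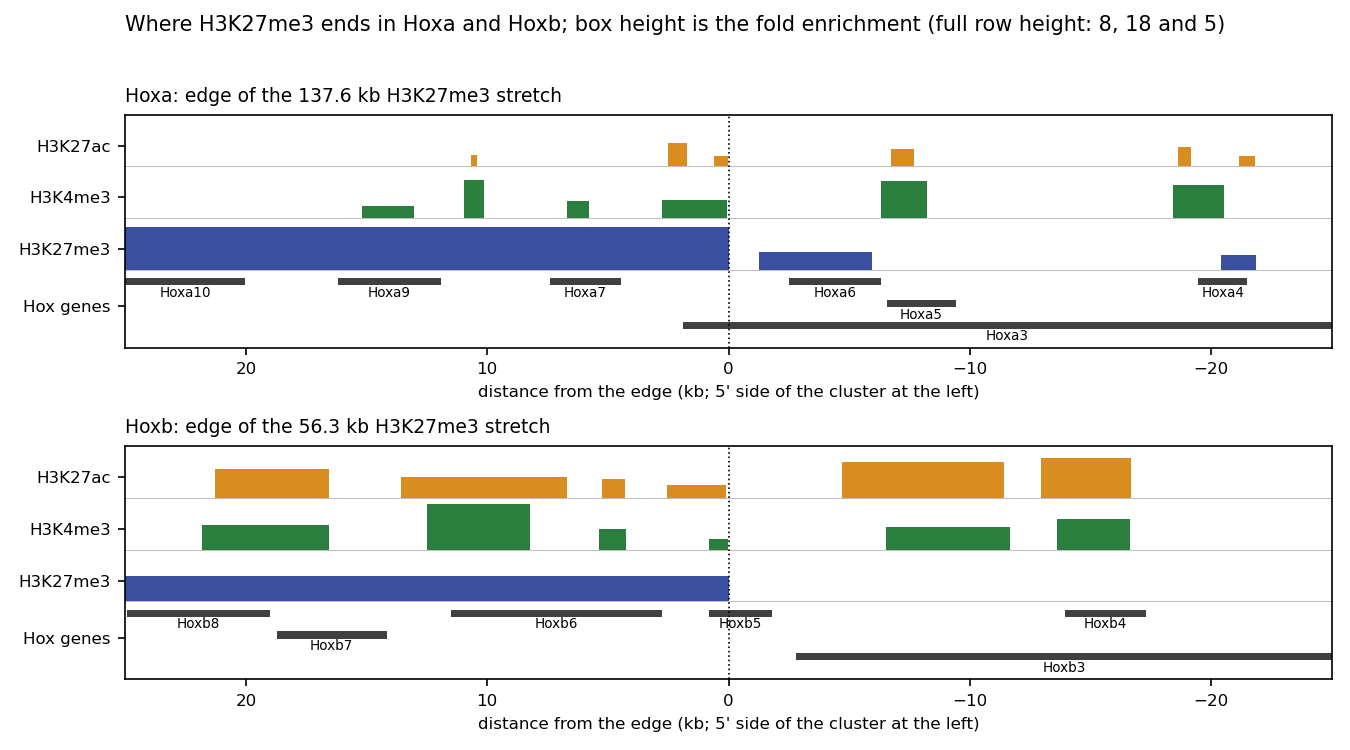
Peaks within 25 kb of the edge of the long H3K27me3 stretch in Hoxa (top) and Hoxb (bottom), by distance in kb from the edge (dotted line) with the 5′ side at the left; box height is fold enrichment and grey bars are genes. Beyond the Hoxb edge the H3K27ac boxes reach a fold of 6.21 and more, and beyond the Hoxa edge the nearest is 2.95.

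A few calls lie close to the 1 kb limit. Hoxa5 counted for H3K27me3 through a peak 620 bp from the gene, and Hoxa6 counted for H3K27ac through a peak 422 bp away. At Hoxa9 the H3K4me3 peak of fold 14.7, and at Hoxa2 the H3K27ac peak of fold 2.58, reached only the outer edge of the window. Just outside, H3K27ac stood 1016 bp from Hoxa2, 1242 bp from Hoxa9 and 1956 bp from Hoxa7, and H3K4me3 stood 1618 bp from Hoxa11 as well as 1033 bp from Hoxa2. The other clusters also had peaks between 1 and 2.5 kb from a gene, all at genes already called for that mark. The H3K27ac peak near Hoxa2 is of that kind too. Weak peaks also decide some calls: H3K27me3 at Hoxa4, Hoxa5, Hoxa6 and Hoxb1, H3K27ac at Hoxb5, Hoxc6 and Hoxc4, and H3K4me3 at Hoxa10 rested on peaks with a −log10 q under 5 alone. Without such peaks Hoxa4, Hoxa5 and Hoxa6 had active marks only and Hoxb1 had no mark.

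The clusters also hold microRNA genes, whose mature sequences are shown because copies in different clusters share a seed. Over the hairpin and 1 kb either side, the miR-10 copies had different marks and the miR-196 copies the same mark. Capitals mark the seed (bases 2 to 8), 5′ to 3′, from RefSeq GRCm38.p6.
mmu-miR-10a-5p: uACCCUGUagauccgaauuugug
mmu-miR-10b-5p: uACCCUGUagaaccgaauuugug
mmu-miR-196a-5p: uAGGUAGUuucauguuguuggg
mmu-miR-196b-5p: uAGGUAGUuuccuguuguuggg

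Counting from 1 at the 5′ end, miR-10b-5p differs from miR-10a-5p by U12A and miR-196b-5p differs from miR-196a-5p by A12C, both outside the seed. Marks were read over each hairpin and 1 kb either side. The hairpin of Mir10a lies at chr11:96317165-96317274, inside the span of Hoxb3. Its window had H3K27ac over 47.2% (fold 6.76), H3K4me3 over 16.8% and no H3K27me3. The Mir10a hairpin itself lay under neither active mark, since those peaks began beyond it, at chr11 positions 96317280 and 96317921. Mir10b, at chr2:74726070-74726137 in Hoxd, was covered 100% by H3K27me3 (fold 3.32) and had no active mark. The genes of the miR-196 seed, Mir196b in Hoxa, Mir196a-1 in Hoxb and Mir196a-2 in Hoxc, all lay wholly under H3K27me3 with no active mark over the hairpin, with folds of 4.63, 2.73 and 4.26. Mir615, inside Hoxc5, lay under all 3 marks. MicroRNAs of the miR-10 and miR-196 families are known to target Hox transcripts. Their levels were not measured in this study.

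The next protein-coding genes outside the clusters set the edges in context. Evx1 and Evx2, homeobox genes that border Hoxa and Hoxd at the 5′ side, had H3K27me3 over 100% and 90.1% of their windows and no active mark. Evx1 lay in the same 137.6 kb peak as Hoxa13. Of the other 14 neighbours examined, 2 on each side of each cluster in all, 9 had active marks without H3K27me3, among them Skap2, Hibadh, Lnpk, Mtx2 and Cbx5. The remaining 5 were mixed (Ttll6, Calcoco2, Skap1, Smug1 and Gm50595).

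Lists of related genes gave other patterns. Of 8 ParaHox and related homeobox genes, which include Evx1 and Evx2, all had H3K27me3 and 7 had no active mark; the exception was Gsx1, with an H3K4me3 peak of fold 4.02. Of 9 genes for Hox cofactors of the Pbx, Meis and Pknox families, all had H3K4me3, 8 had H3K27ac and 3 (Meis3, Pbx4 and Pknox2) had H3K27me3 as well. All 16 Polycomb genes had both active marks, among them Ezh2, the H3K27 methyltransferase, and Eed and Suz12, its partners, and 5 also had H3K27me3. All 5 trithorax and demethylase genes had both active marks, and 1 of them, Kdm6b, an H3K27 demethylase, had H3K27me3 over 0.79% of its window. Of all protein-coding genes, 61.2% had H3K4me3, 63.2% had H3K27ac and 56.3% had both. H3K27me3 lay at 37.5% of all genes, and without an active mark at 17.9%. H3K27me3 at 3 of 9 cofactor genes and 5 of 16 Polycomb genes was thus close to the share over all genes.

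As a check of the cell type, all 7 mammary epithelial markers (Krt5, Krt14, Krt8, Krt18, Epcam, Cdh1 and Trp63) had both H3K27ac and H3K4me3, as did 56.3% of all protein-coding genes and 15 of the 38 Hox genes. H3K27me3 lay at 4 of the 7 as well, over 88.0% of the window at Krt5, 18.4% at Epcam, 5.17% at Krt14 and 3.76% at Cdh1. Among 7 markers of other cell types, 4 had H3K27ac, 3 had H3K4me3 and 5 had H3K27me3 (63.2%, 61.2% and 37.5% of all genes). Adipoq, a fat cell gene, had no mark, and Myod1, a muscle gene, was covered 100% by H3K27me3 alone. Pecam1, an endothelial gene, had H3K27ac (fold 7.18), H3K4me3 (fold 2.08) and no H3K27me3. Pdgfra had all 3 marks, with folds of 13.6 for H3K4me3 and 2.95 for H3K27ac, and so did Ptprc, with folds of 3.03 and 2.49. Rbfox3 had H3K27ac (fold 3.06) and H3K27me3, and Cdh5 had H3K27me3 alone. The part of other cells in the marks at the Hox genes was not tested.

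HEB, an E protein that binds CANNTG, had no site in or near a Hox cluster. The nearest of its 956 sites lay 543.0 kb from Hoxc, 1265 kb from Hoxb, 1444 kb from Hoxa and 4726 kb from Hoxd, against a median of 838.6 kb over all protein-coding genes. The motif CANNTG, which reads the same on both strands, was found in 17 of the 24 Hox promoter windows (70.8%), against 72.3% of all promoter windows.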

How the data were processed

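ChIP-seq was measured in 20 samples of Comma-Dβ cells, 4 per group. The files are 4 peak lists, 1 per antibody. The build is mm10 and SAMtools was among the tools, per the submitters' processing notes. The sources used here do not give the aligner, the peak caller, the input that served as control or how replicates were combined. The authors' deposited lists give for each histone mark peak a fold enrichment (a ratio of ChIP over control), a −log10 q-value and a score. The fold and the −log10 q-value were used within a list to describe, rank and filter peaks, and the score was not used. The deposited HEB list gives positions only.

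Gene positions came from a RefSeq gene table of GRCm38.p6, in which all 38 members were found. Peaks were overlapped with gene windows in Python 3.11.15 with numpy 2.4.6 and pandas 2.3.3 (1 bp or more, 1 kb flanks), and Spearman's rho was computed from ranks. The overlap code was tested on simulated data, with 0 wrong of 2000 windows. All 38 members are named, with the next 2 protein-coding genes on each side of each cluster and the genes of the 6 lists. The members and lists were chosen with earlier results of these data known. The alternatives changed the window, the peak threshold and the joining of peaks. With 1 list per group no test was run, and the depth per sample is unknown.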

Additional observations from a re-analysis of the deposited data

How the results depend on the processing

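No paired analysis was possible because the lists carry no column per replicate, and for the same reason no replicate could be left out. Counts are of 38 members unless said otherwise. In the 300-base promoter window, which was known for 22 members, 18 had H3K27me3, 2 had H3K27ac and 4 had H3K4me3. An active mark without H3K27me3 lay at 2 of the 22, and 2 were mixed. Over the 17492 genes with such a window, 22% had H3K27me3, 48.8% had H3K27ac and 55.8% had H3K4me3. Of those genes, 52% were active without H3K27me3 and 5.86% were mixed. Fewer genes and a shorter window enter there. The 22 members were 9 of Hoxa, 3 of Hoxb, 1 of Hoxc and 9 of Hoxd. Hoxd, which had no active mark, therefore weighs more among the 22 than among the 38. Where peaks had to cover at least 20% of the window, 10 had H3K27ac, 12 had H3K4me3 and 9 were mixed (all genes: 21%, 13.1% and 1.31%). That comparison was not matched for gene length. Taking peaks of above-median fold in each list, 6 had H3K4me3 and 9 were mixed, and 10 meetings of H3K27ac and H3K27me3 were left. Over all genes at that setting, 32.2% had H3K27me3, 56.7% had H3K27ac, 43.8% had H3K4me3 and 10.4% were mixed. With a −log10 q of 5 or more, 7 had an active mark without H3K27me3 and 9 meetings were left (all genes: 54.4% active without H3K27me3 and 19.5% with H3K27me3). The other alternatives kept these counts within 1.5 times, including the one without the 4 members over 15 kb, which was added after seeing the data. The state of a gene was the same for 37 of 38 members with no flank, with 2.5 kb flanks and with gene ends only, for 33 at the stricter q, for 31 above the median fold and for 30 at 20% coverage, and for 14 of 22 in the promoter window. H3K27me3 without an active mark ranged from 16 members (in the promoter window, of 22) to 24 members. The 16 were 72.7% of those scored, against 16.1% of all genes with such a window. The 24 (63.2%) were found both above the median fold and at 20% coverage, against 21.8% and 22.6% of all genes. The read depth behind the weak peaks is unknown.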
